A study of Mus musculus with 4 samples.

Results

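The signalling genes of the bone morphogenetic protein (BMP) and transforming growth factor beta (TGF-beta) pathways were examined in skeletal stem/progenitor cells from the marrow of mature and elderly mice. The 52 genes were taken from a list of ligands, latency proteins, receptors, antagonists, Smads and Id genes, and each was found by its symbol among the 33924 gene symbols to which the deposited transcripts could be assigned. Of these, 49 passed the count filter and were tested together with 21340 genes in all.

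RNA-seq had been performed on wild-type C57Bl/6 male mice, with 2 libraries from mature (3-month-old) and 2 from elderly (24-month-old) animals. The RNA came from pools of 3 or 4 mice, and the sources do not say whether the 2 libraries of an age came from separate pools, so that p-values measure the spread between libraries only and this spread may be technical. The methods describe Lin- LEPR+ cells, sorted as negative for Ter119, CD31 and CD45 and positive for the leptin receptor, whereas the sample labels name whole bone marrow. By the methods, poly-adenylated RNA was selected for all samples but those named AMB and HU MSC, which were prepared as total RNA. The AMB name carries an age in weeks close to that of the mature mice. Whether any library used here was among these cannot be told from the sources, so that RNA selection may differ between the ages. The libraries held between 10472117 and 15650518 counts.

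Ligands of this superfamily bind pairs of type I and type II serine/threonine kinase receptors, which phosphorylate receptor-regulated Smads. TGF-beta and activin signals run mainly through Smad2 and Smad3, BMP signals through Smad1, Smad5 and Smad9, and Smad4 is the common partner of both. TGF-beta is secreted in a latent form held in the matrix by latent TGF-beta binding proteins, antagonists such as noggin and gremlin trap BMPs outside the cell, and Id genes are direct targets of BMP signalling. In bone, BMPs drive osteoblast differentiation and TGF-beta couples resorption to formation.

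The cell type that the methods describe was checked against its markers first. Leptin receptor (Lepr) had 74183 and 65727 counts in mature libraries and 45713 and 87711 in elderly ones. Ptprc, which encodes CD45, had 4 and 1 against 12 and 8 counts, but only 152 of its bases could be counted. The sum of 12 LEPR+ stromal markers was 32310 and 32501 CPM (counts relative to library size after TMM scaling, on the usual CPM scale) in the mature libraries. It was 20523 CPM in elderly replicate 1 and 29380 CPM in elderly replicate 2, so that elderly replicate 1 stood lowest. Summed markers of neutrophils were at 2118 and 1214 CPM in mature and 4549 and 4488 CPM in elderly libraries, with 7 of 10 tested genes called higher. Those of erythroid cells were at 447 and 197 against 1480 and 1342 CPM, also with 7 of 10 called higher. Called higher as well were 3 of 5 tested markers of plasma cells, 3 of 8 of dividing cells and 5 of 10 of macrophages and monocytes. Of the markers of B-lineage cells, T and NK cells and megakaryocytes 0 were called, but 4 of 7, 4 of 6 and 0 of 7 had an unadjusted p under 0.05 in edgeR's test. The log2 fold change, elderly over mature, was above 0 for 5, 6 and 6 of these, and DESeq2 called 1 marker of T and NK cells. Chondrocyte markers were called lower for 3 of 6 and higher for 1. In endothelial cells 1 of 8 markers was called higher, and in smooth muscle and pericytes 1 of 7. The part that cells other than stromal ones had in the results below was not tested. In bulk RNA, fewer cells of a type and less RNA per cell cannot be told apart.

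In elderly cells 2 of the genes rose and 2 fell, where a gene was called at an adjusted p under 0.05 in edgeR's quasi-likelihood test. Called higher in elderly cells were Bmp3 and Inhbb, which is 2 of the 49 members against 2.28% of all tested genes called higher. Called lower were Ltbp1 and Id3, 2 of 49 against 0.45% of all tested genes, and in either direction 2.73% of all tested genes were called. Of the 43 members with a mean of at least 1 CPM, these 4 were called, against 4.05% of the 14238 tested genes at that level (3.38% higher and 0.667% lower). The elderly libraries were both higher than the mature ones for 9 members (22.9% of all tested genes) and below them for 15 (18.1% of all tested genes). The median log2 fold change, elderly over mature, was −0.15 over the members tested and 0.02 over all genes tested. DESeq2 called the same 4 members, with 2.59% of all genes called higher and 0.736% lower. The exact test at a fixed dispersion of 0.2 called 0 members, with 5 at an unadjusted p under 0.05, and 0.937% of all genes higher and 0.155% lower.

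**Figure D1:**
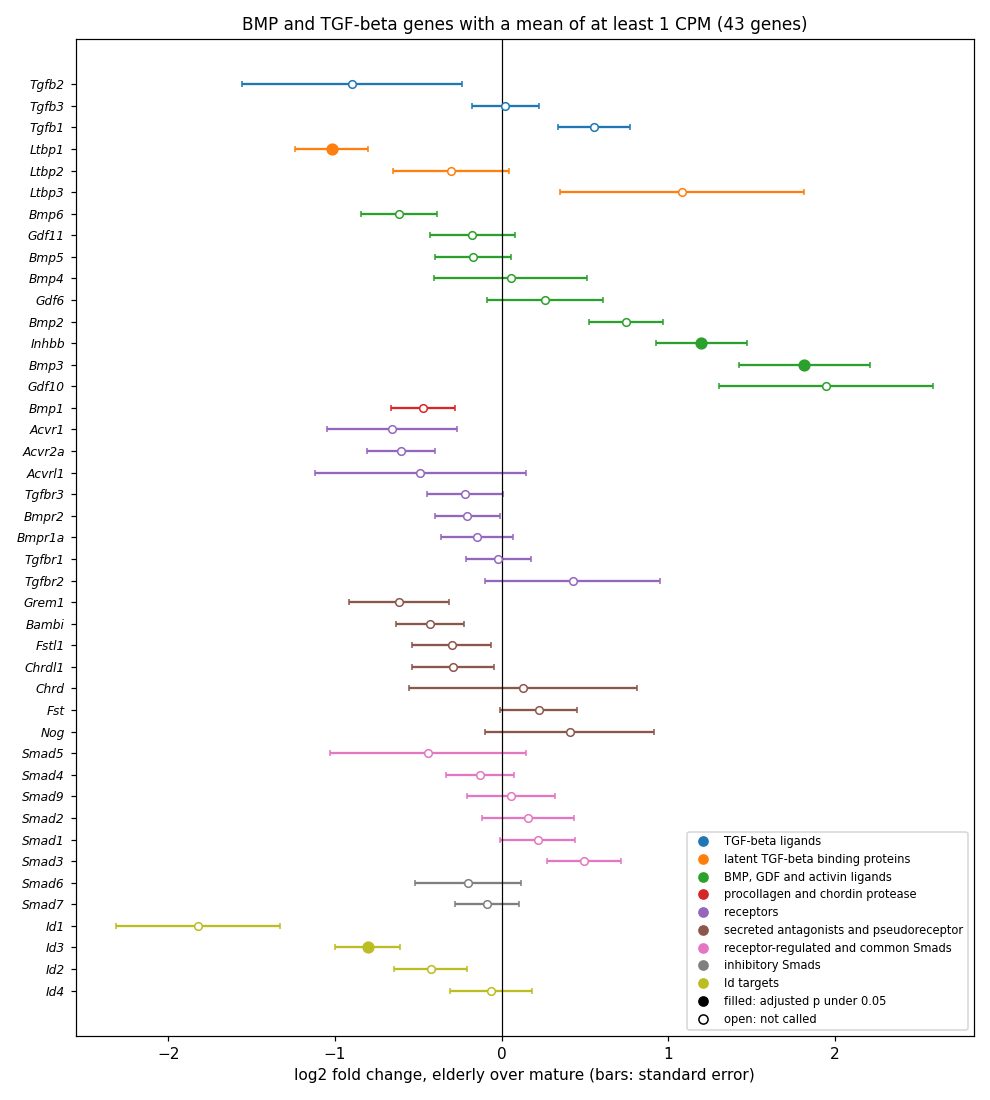
Log2 fold change of each member with a mean of at least 1 CPM, elderly over mature, on the x axis, with bars for the standard error and colours for the role. The filled points are the 4 called genes, with Bmp3 and Inhbb to the right of 0 and Ltbp1 and Id3 to the left.

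The TGF-beta ligands were not called in either direction, with 1 of 3 at an unadjusted p under 0.05 and 0 called by DESeq2. Tgfb1, the most widely expressed TGF-beta isoform, was counted at 57.2 and 70.6 CPM in mature and 104 and 84.1 CPM in elderly libraries. The elderly values were the higher ones, but the test was not passed (log2 fold change 0.56, SE 0.22, edgeR adjusted p = 0.296). Tgfb3, the TGF-beta ligand with the most counts per length, was at 184 and 164 CPM in mature and 159 and 195 CPM in elderly libraries, so that the ages overlapped. Its log2 fold change of 0.02 had a 95% interval of −0.41 to 0.46. Tgfb2 was low, with 25 and 14 counts in mature and 8 and 16 counts in elderly libraries.

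Ltbp1, a latent TGF-beta binding protein that anchors the latent complex to fibrillin and fibronectin in the matrix, fell. The gene is at chr17:75404908-75791852 on the plus strand (NCBI Build 37, mm9). The libraries had 901 and 865 counts in mature and 363 and 638 counts in elderly mice, which is 77.6 and 74.2 CPM against 32.6 and 42.1 CPM. Both elderly libraries lay well below both mature ones. The mean fell from 75.9 ± 2.39 to 37.4 ± 6.71 CPM (SD, n = 2; log2 fold change −1.02, SE 0.22, edgeR adjusted p = 0.0257). The counts came mainly from the longest coding transcript, ENSMUST00000001927, with 607 and 661 counts in mature and 252 and 472 counts in elderly libraries. A transcript with a retained intron, ENSMUST00000135750, was lower in the elderly libraries as well, with 134 and 106 against 64 and 96 counts.

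The call on Ltbp1 was lost without elderly replicate 1 (log2 fold change −0.87, adjusted p = 0.202) and without elderly replicate 2 (−1.22, adjusted p = 0.601), but these fits called only 40 and 0 genes in the whole table (1959 and 1637 at an unadjusted p under 0.05). When the libraries were scaled to the summed LEPR+ stromal markers, an alternative chosen after seeing the data, the log2 fold change was −0.63 (adjusted p = 0.361), while the median of all genes moved up by 0.41. Under that scaling 2.87% of all genes were called higher and 0.145% lower.

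The other latency proteins were not called. Ltbp2, an elastic fibre protein of the same family, was counted at 80.2 and 85.9 CPM in mature and 99.1 and 35.9 CPM in elderly libraries, so that the elderly libraries lay on either side of the mature ones. Nearly all of its counts came from a retained-intron transcript, with 931 and 996 counts in mature and 1099 and 539 counts in elderly libraries, since the longest coding transcripts had few bases of their own. Ltbp3, with 5 and 10 against 16 and 20 counts, was measured on only 28 bases, and its log2 fold change of 1.08 (standard error 0.73) did not pass (edgeR adjusted p = 0.67). Ltbp4 had 0 to 3 counts per library.

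**Figure D2:**
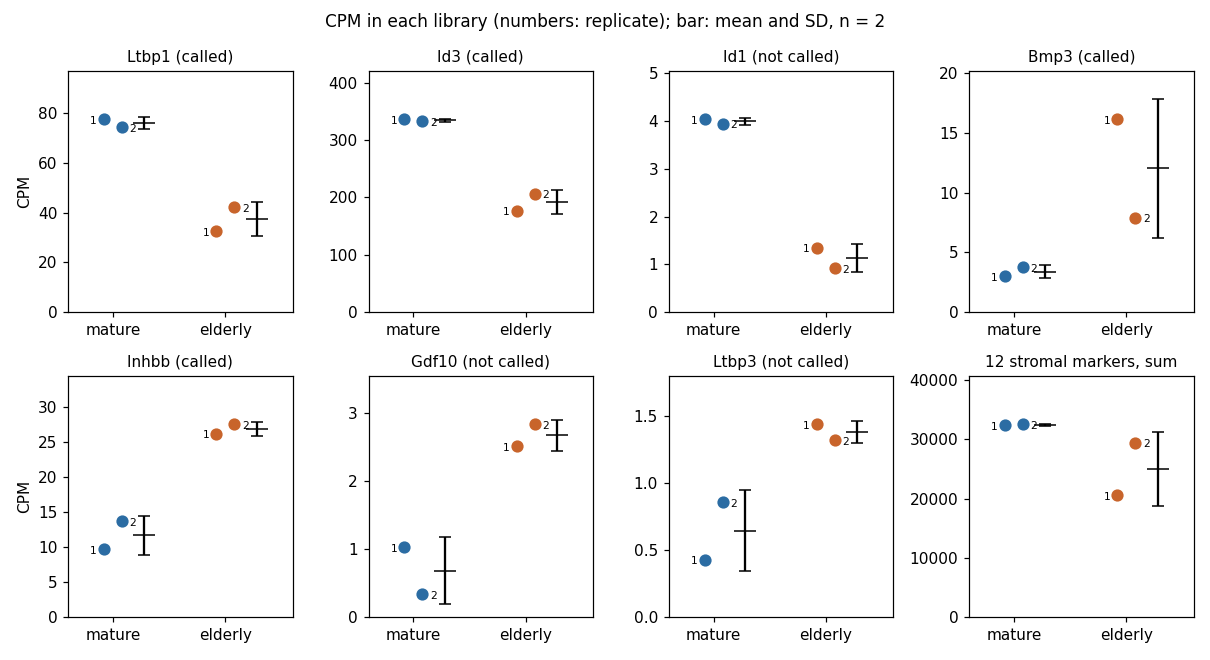
CPM of 7 members and the summed CPM of 12 LEPR+ stromal markers in each library, on linear axes that start at 0, with the mean and SD (n = 2) beside the points and the replicate number at each point. The ages do not overlap in any of the 7 members, which was a condition for naming Id1, Gdf10 and Ltbp3. Among the stromal markers elderly replicate 1 is the lowest at 20523 CPM.

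Among the BMP, GDF and activin ligands, 2 of 12 tested genes rose and 0 fell (2.28% and 0.45% of all tested genes), with 5 at an unadjusted p under 0.05 (11.2% of all tested genes). Bmp3, a ligand that opposes osteogenic BMPs and is made by cells of the osteoblast lineage, is at chr5:99283458-99309979 on the plus strand. It had 35 and 44 counts in mature and 180 and 120 counts in elderly libraries. Both elderly libraries were higher, although they differed from each other, at 16.2 and 7.92 CPM. The mean rose from 3.39 ± 0.54 to 12.04 ± 5.84 CPM (SD, n = 2; log2 fold change 1.82, SE 0.39, edgeR adjusted p = 0.0272). The call was lost without elderly replicate 1 (log2 fold change 1.21, adjusted p = 0.435) and without elderly replicate 2 (2.25, adjusted p = 0.601).

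Inhbb encodes the beta B subunit shared by activin B and inhibin B, and is at chr1:121312042-121318825 on the minus strand. It was counted at 113 and 160 in mature and 292 and 418 in elderly libraries. In CPM, the elderly libraries were close together at 26.2 and 27.6, above 9.73 and 13.7 in the mature libraries. The mean rose from 11.7 ± 2.82 to 26.9 ± 0.95 CPM (SD, n = 2; log2 fold change 1.20, SE 0.27, edgeR adjusted p = 0.0344). The call was lost without mature replicate 1 (0.97, adjusted p = 0.155), without elderly replicate 1 (adjusted p = 0.252) and without elderly replicate 2 (adjusted p = 0.601). Bmp3 and Inhbb each have 1 annotated transcript that shares no base with another, and both were also called under scaling to the stromal markers (adjusted p = 0.0298 and 0.0363). The osteoblast markers, which bear on the source of Bmp3, did not move one way, with Phex and Col1a1 called higher and Ibsp called lower. Their summed level was 7080 and 6442 CPM in mature and 2276 and 4249 CPM in elderly libraries, and the part of osteoblasts in the result was not tested.

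Bmp2 and Gdf10 had higher values in elderly libraries without passing the test. Bmp2, a ligand that induces osteoblast differentiation, was at 91.2 and 108 CPM in mature and 139 and 195 CPM in elderly libraries. The ages did not overlap, and the log2 fold change was 0.75 (standard error 0.22, edgeR adjusted p = 0.117). Bmp2 passed in 5 of the alternatives, which were the robust fit, scaling by library size alone, no count filter, the replicate block and scaling to the stromal markers. Gdf10, also called BMP3b and close to Bmp3 in sequence, had 12 and 4 counts in mature and 28 and 43 counts in elderly libraries (log2 fold change 1.95, standard error 0.64, edgeR adjusted p = 0.181). Its adjusted p was 0.0454 with the replicate number as a block, a setting that called 4.55% of all genes higher and 1.37% lower, and 0.0278 without mature replicate 1 (log2 fold change 2.93). Without mature replicate 2 it was 0.511 (log2 fold change 1.33), so that the size for Gdf10 depended on which mature library was kept.

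Bmp6 and Bmp5 were the ligands of this class with the most counts per length. Bmp6, an osteogenic ligand that also regulates hepcidin, was at 507 and 471 CPM in mature and 248 and 391 CPM in elderly libraries. Both elderly libraries were lower, and the test was not passed (log2 fold change −0.62, SE 0.23, edgeR adjusted p = 0.27). Bmp5 overlapped between the ages, at 313 and 281 against 206 and 320 CPM. The other ligands measured above 1 CPM, Bmp4, Gdf6 and Gdf11, overlapped between the ages, with log2 fold changes from −0.18 to 0.26. At the lower end, Inhba had 3 to 17 counts per library and Gdf15, a stress-induced cytokine, had 4 and 11 against 2 and 0. Bmp7 had 13 counts in elderly replicate 1 and 0 in the other libraries. Gdf5 had 2 counts in 1 library and myostatin (Mstn) had 0 in each, so neither was tested. Bmp1, which is a protease for procollagen and chordin and not a ligand, was at 132 and 128 CPM in mature and 92.1 and 94.7 CPM in elderly libraries (log2 fold change −0.47, edgeR adjusted p = 0.334).

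Of 9 tested receptors, 0 were called by edgeR or by DESeq2 and 1, Acvr2a, had an unadjusted p under 0.05. The log2 fold change was below 0 for 8 of the 9, and both elderly libraries lay below both mature ones for 4 (18.1% of all tested genes), which were Acvr2a, Bmpr2, Acvr1 and, with very few counts, Bmpr1b. Tgfbr3 (betaglycan), a co-receptor that presents TGF-beta and inhibin, was the receptor with the most counts per length. It was at 1727 and 1696 CPM in mature and 1151 and 1790 CPM in elderly libraries, with elderly replicate 2 above both mature libraries. Its log2 fold change was −0.22, with a 95% interval of −0.71 to 0.28. Acvr2a, a type II receptor for activins and BMPs, was at 559 and 488 CPM against 305 and 385 CPM (log2 fold change −0.60, standard error 0.20, edgeR adjusted p = 0.201). The BMP receptors Bmpr2 and Bmpr1a and the TGF-beta receptor Tgfbr1 had log2 fold changes of −0.21, −0.15 and −0.02. The 95% interval of Tgfbr1 ran from −0.44 to 0.40. Acvr1 had 32 to 57 counts per library and the endothelial receptor Acvrl1 had 12 to 31. Of the 1779 bases of Acvr1 that could be counted, 1079 were in a non-coding transcript. The longest coding transcript of Acvrl1 had only 15 bases of its own, so the few counts of these 2 genes are not a sign of low expression. Bmpr1b had 3 and 2 counts in mature and 0 in elderly libraries.

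The type II TGF-beta receptor could not be judged. Only 75 bases of Tgfbr2 are in a single annotated transcript, so that its 18 to 62 counts per library do not measure its level. Acvr2b has no such base and had 0 counts in each library, which is not a sign of low expression. In these data, reads on bases shared by several transcripts had not been counted: all 25621 transcripts without an exclusive base were at 0 in the 4 libraries.

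**Figure D3:**
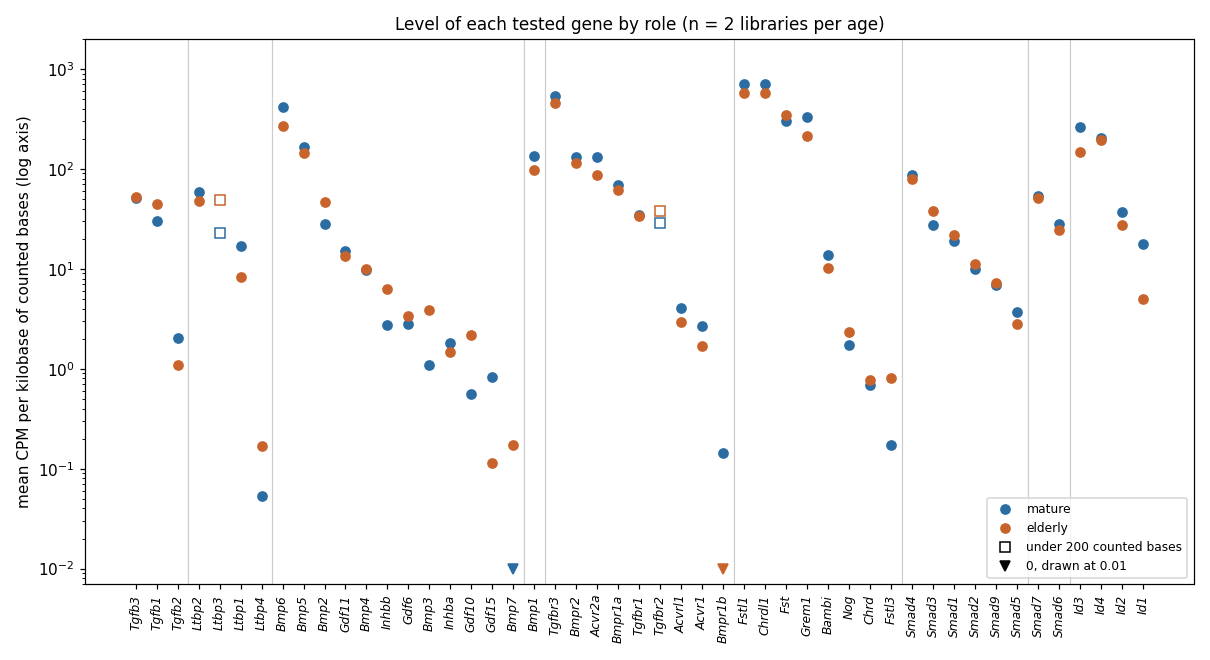
Mean CPM per kilobase of counted bases in mature and elderly libraries (log axis, n = 2 per age) for the 49 tested members, sorted within each role. The antagonists Fstl1 and Chrdl1 and the co-receptor Tgfbr3 are at the top with over 450 CPM per kilobase at both ages, open squares mark Ltbp3 and Tgfbr2 with 28 and 75 counted bases, and triangles mark an age with 0 counts.

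Levels per counted length put secreted antagonists at the top. Follistatin-like Fstl1, a secreted glycoprotein that binds BMP ligands, stood at 713 CPM per kilobase in mature and 579 in elderly cells, and chordin-like Chrdl1, which binds BMP4, at 702 and 574. Next by mean over the 4 libraries came Tgfbr3 at 534 and 459 CPM per kilobase, Bmp6 at 416 and 271, Fst (follistatin, which traps activins) at 299 and 349 and Grem1 (gremlin, a BMP trap) at 331 and 216. The spread between the elderly libraries was larger than most of these steps: the SD of Fstl1 was 697 CPM about a mean of 2077 CPM in elderly and 164 CPM about 2558 CPM in mature cells (n = 2), and neighbours in this order cannot be told apart.

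Of the 8 antagonists, 0 were called by edgeR or DESeq2 and 0 had an unadjusted p under 0.05. Grem1 was at 1422 and 1322 CPM in mature and 546 and 1244 CPM in elderly libraries. Both elderly values were lower, but elderly replicate 2 was close to the mature ones, and the test was not passed (log2 fold change −0.62, SE 0.30, edgeR adjusted p = 0.488). With the replicate number as a block, Grem1 was called. Fstl1 was at 2673 and 2442 against 1584 and 2570 CPM and Chrdl1 at 997 and 831 against 558 and 937 CPM, and in both the ages overlapped. Fst was at 484 and 469 CPM in mature and 431 and 681 CPM in elderly libraries. Bambi, a membrane pseudoreceptor without a kinase domain, was at 70.8 and 67.2 CPM against 51.7 and 50.8 CPM (log2 fold change −0.43, edgeR adjusted p = 0.463). Noggin (Nog) had 20 to 63 counts per library, chordin (Chrd) 11 to 25 and Fstl3 0 to 6. The longest coding transcripts of Chrd and Fstl3 had only 0 and 2 bases of their own, so these counts do not measure the level of their mRNA.

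Of 6 receptor-regulated and common Smads, 0 were called by edgeR or DESeq2 and 1 had an unadjusted p under 0.05. That gene was Smad3, which carries TGF-beta and activin signals, at 106 and 156 CPM in mature and 179 and 191 CPM in elderly libraries (log2 fold change 0.49, standard error 0.22, edgeR adjusted p = 0.41). Smad1 and Smad9, which carry BMP signals, were at 74.7 and 79.8 against 72.8 and 107 CPM and at 36.1 and 37.9 against 28.7 and 48.0 CPM, with overlapping ages. The common Smad4 was at 139 and 150 against 116 and 148 CPM, with a log2 fold change of −0.13 (95% interval −0.57 to 0.31). Smad2 and Smad5 had 128 to 196 and 14 to 40 counts per library. The inhibitory Smad7 was at 142 and 143 CPM in mature and 129 and 139 CPM in elderly libraries (log2 fold change −0.09, 95% interval −0.50 to 0.33). Smad6, the inhibitor of BMP signals, differed more within the ages than between them, at 51.1 and 115 CPM in mature and 58.6 and 85.3 CPM in elderly libraries. Neither was called by edgeR or DESeq2, and 0 of the 2 had an unadjusted p under 0.05.

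The Id genes encode helix-loop-helix proteins without a DNA-binding region, which hold bHLH factors inactive. Id3 fell, and the log2 fold change was below 0 for each of the 4. Id3, at chr4:135699412-135701670 on the plus strand, had 3912 and 3879 counts in mature and 1971 and 3129 counts in elderly libraries. In CPM this was 337 and 333 against 177 and 206, so that the mature libraries were nearly equal and both elderly ones were lower. The mean fell from 335 ± 2.88 to 192 ± 20.8 CPM (SD, n = 2; log2 fold change −0.80, SE 0.20, edgeR adjusted p = 0.0466). The 3 annotated Id3 transcripts were lower in total: the coding one had 2806 and 2890 against 1354 and 2496 counts, a retained-intron one 1002 and 897 against 541 and 584, and another, non-coding one 104 and 92 against 76 and 49. The call was just inside the threshold and was lost without any 1 of the 4 libraries, with an adjusted p of 0.238 without mature replicate 1, 0.233 without mature replicate 2, 0.174 without elderly replicate 1 and 0.601 without elderly replicate 2. The log2 fold changes of Id3 in these fits were −0.79, −0.85, −0.71 and −0.92, and the last fit called 0 genes in the whole table. Under scaling to the stromal markers the log2 fold change was −0.40 (adjusted p = 0.46).

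Id1 had the lowest log2 fold change of the members above 1 CPM, −1.82 (standard error 0.49), and did not pass (edgeR adjusted p = 0.0792). The adjusted p of Id1 was 0.0395 in a robust fit, 0.0279 without a count filter, 0.046 with the most-counted transcript and 0.0147 with the replicate number as a block, and over all alternatives it ranged from 0.0147 to 0.601. It had 47 and 46 counts in mature and 15 and 14 counts in elderly libraries, without overlap. These counts are few because they cover a small part of the gene. Id1, at chr2:152561987-152563146 on the plus strand, has 2 annotated transcripts with the same ends, and the spliced one, ENSMUST00000038368, has no base of its own. The 226 bases that could be counted, from 152562482 to 152562707, are the intron of the spliced transcript and are retained in the other, ENSMUST00000109824. The Id1 values therefore measure RNA that keeps this intron, and not the spliced mRNA. If RNA selection differed between the ages, its part in counts from retained introns cannot be told apart from that of age. This holds as well for the retained-intron counts of Ltbp1, Ltbp2 and Id3. In the retained transcript, 99 of these bases are annotated as coding (chr2:152562482-152562580, forward strand, mm9), and they are printed since the Id1 result rests on them, with the splice donor dinucleotide in capitals.
Id1 retained intron, coding part: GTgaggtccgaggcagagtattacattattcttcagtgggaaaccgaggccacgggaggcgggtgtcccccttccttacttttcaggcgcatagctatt

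Id2 was at 46.5 and 46.6 CPM in mature and 35.8 and 33.5 CPM in elderly libraries, below them at both replicates, and did not pass (log2 fold change −0.43, standard error 0.22, edgeR adjusted p = 0.517). Id4 was at 289 and 321 against 214 and 369 CPM, with overlapping ages and a 95% interval of −0.60 to 0.47 for its log2 fold change. The Id genes thus ranged from −1.82 to −0.06.

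The promoters of Id1 and Id3 are shown because these were the Id genes with the lowest log2 fold changes. Each window holds the 250 bases before the annotated start on the forward strand of mm9, Id1 at chr2:152561737-152561986 and Id3 at chr4:135699162-135699411, and capitals mark CAGAC or its reverse complement GTCTG, letters to which Smads can bind.
Id1: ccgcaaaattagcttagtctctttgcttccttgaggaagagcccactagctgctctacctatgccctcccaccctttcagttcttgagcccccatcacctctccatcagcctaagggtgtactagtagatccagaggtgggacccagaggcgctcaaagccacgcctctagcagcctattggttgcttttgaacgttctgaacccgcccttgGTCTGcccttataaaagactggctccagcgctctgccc
Id3: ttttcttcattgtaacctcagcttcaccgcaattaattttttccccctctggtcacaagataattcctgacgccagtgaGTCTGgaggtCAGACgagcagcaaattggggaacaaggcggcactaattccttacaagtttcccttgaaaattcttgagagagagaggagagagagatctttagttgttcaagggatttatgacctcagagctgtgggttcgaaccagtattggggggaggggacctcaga

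The window of Id1 held 1 such match, with its first base 38 bases before the start, and that of Id3 held 2, at 171 and 161 bases before it. A match on either strand was present in 41.0% of the 22226 promoters of protein-coding genes searched and in 21 of the 52 members. The palindrome GGCGCC, a BMP-responsive box, was in neither window, in that of Id2, in 11 of the 52 members and in 11.4% of all promoters. This palindrome holds only G and C, and the median share of G and C was 65.2% in the members' windows against 54.4% in all promoters. The part of base composition in this count was not tested. The Smad palindrome GTCTAGAC was in 0 of the 52 and in 0.157% of all promoters. These are matches of letters in short windows and not binding sites.

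The spread between the elderly libraries was a feature of the abundant members. In each of the 19 members with a mean of at least 100 CPM, elderly replicate 1 was below elderly replicate 2, which was so for 79.3% of the 1767 tested genes at that level. The median log2 ratio to the mature mean of these 19 was −0.49 in elderly replicate 1 and 0.04 in elderly replicate 2, against −0.15 and 0.08 over the 1767 genes. The 12 stromal markers gave −0.52 and −0.03. Elderly replicate 1 was below both mature libraries in 17 of the 19 and in 1024 of the 1767 genes, and elderly replicate 2 in 7 of the 19 and 451 of the 1767. Genes such as Grem1, Fstl1 and Chrdl1 therefore had lower means in elderly cells chiefly through 1 library that was also the lowest for the stromal markers, and the part of the stromal content in this was not tested.

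**Figure D4:**
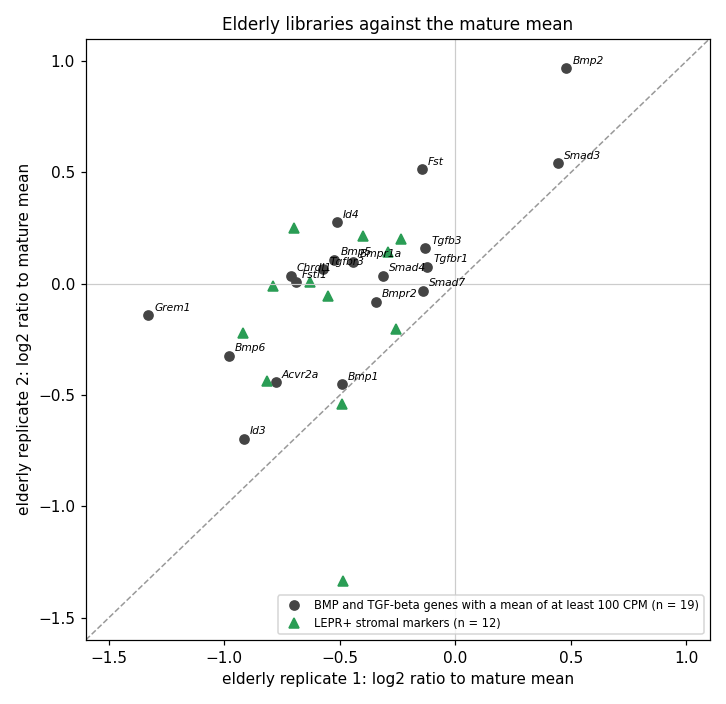
Log2 ratio to the mature mean in elderly replicate 1 (x axis) and elderly replicate 2 (y axis), with 0.5 CPM added to each value, for the 19 members with a mean of at least 100 CPM and 12 LEPR+ stromal markers. The points of all 19 members lie above the dashed line of equal values, and Id3, Bmp1 and Acvr2a are among those below 0 in both libraries.

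Among 113 other genes of the pathways found in the data, 99 were tested, of which 9 rose and 1 fell, against 2.28% and 0.45% of all tested genes. The genes that activate or store latent TGF-beta held 4 of the 9. Of the 13 tested in that list, the log2 fold change was above 0 for 9 and below 0 for 4. Among the latter was the integrin chain Itgav, at 44.5 and 34.0 CPM in mature and 26.0 and 33.1 CPM in elderly libraries, which was not called. Itgb8, the beta chain of an integrin that frees TGF-beta from its latent complex, rose from 4.60 ± 0.90 to 39.1 ± 2.94 CPM (SD, n = 2), with 46 and 61 counts in mature and 412 and 624 counts in elderly libraries (log2 fold change 3.09, standard error 0.28, edgeR adjusted p = 1.4e-04). Thrombospondin-1 (Thbs1), which also activates latent TGF-beta, rose from 1348 ± 173 to 2762 ± 761 CPM (log2 fold change 1.04, adjusted p = 0.0307). The matrix metalloproteinases Mmp2 and Mmp9, which can cleave the latent complex, rose by 1.52 and 1.69 (adjusted p = 1.6e-03 and 1.4e-03). Mmp9 is also made by neutrophils, whose markers were higher in the elderly libraries.

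Decorin (Dcn), a proteoglycan that binds TGF-beta, rose from 22.4 ± 2.67 to 50.4 ± 0.49 CPM (SD, n = 2; log2 fold change 1.17, edgeR adjusted p = 0.016), the 1 gene called of 17 tested antagonists outside the members. Zeb1, a repressor that interacts with Smads, was the 1 called of 23 intracellular regulators (log2 fold change 0.89, adjusted p = 0.0408). Of 12 other ligands and 7 other receptors and co-receptors tested, 0 were called by edgeR or DESeq2, with 3 and 1 at an unadjusted p under 0.05.

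The target genes went both ways. Of 21 tested TGF-beta targets, 2 rose and 0 fell (2.28% and 0.45% of all tested genes), with 5 at an unadjusted p under 0.05 (11.2% of all tested genes). They were Col1a1, which encodes a chain of type I collagen, at 285 ± 27.4 and 540 ± 27.7 CPM (SD, n = 2; log2 fold change 0.92, edgeR adjusted p = 0.0236), and Acta2, smooth muscle actin, with 20 and 47 against 136 and 123 counts (1.81, adjusted p = 0.04). Of 20 tested BMP targets, which include Id1 to Id4 and other members, 1 rose and 2 fell (2.28% and 0.45% of all tested genes). Besides Id3, Hey1, a bHLH repressor of the Notch and BMP pathways, fell from 44.7 ± 4.62 to 22.7 ± 0.73 CPM (log2 fold change −0.98, edgeR adjusted p = 0.0405). Tnfrsf11b, which encodes the RANKL decoy receptor osteoprotegerin, rose from 5.24 ± 1.08 to 18.3 ± 8.87 CPM (1.80, adjusted p = 0.0203). The median log2 fold change was −0.04 over the tested TGF-beta targets and −0.31 over the tested BMP targets, against 0.02 over all genes tested.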

How the data were processed

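The authors removed adapters with CutAdapt, used HISAT2 to map reads to mm9 (NCBI Build 37) and featureCounts to count them per transcript. All deposited values are whole-number counts per Ensembl transcript, without normalization or filter. The strand setting and tool versions are not given in the sources used here. Of 95883 transcripts, 388 were not in GENCODE release M1 and were left out. Counts were summed per gene symbol. Genes with more than 2 counts over the 4 libraries were scaled by TMM and the ages compared by edgeR's quasi-likelihood test (edgeR 4.0.16, R 4.3.3, two-sided, no covariate), with Benjamini-Hochberg adjustment over all 21340 genes tested. A permutation test of 2 against 2 libraries cannot give a p below 0.333. Levels between genes are given per kilobase of exonic bases found in 1 transcript only, and CPM values were computed from the deposited counts.

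The groups came from the titles of the labels, which also give the replicate numbers. Named with full values are the called members, those with an absolute log2 fold change over 1, no overlap between the ages and at least 10 counts in each library of the higher age, and the member with the most counts per length in each role, as well as called genes of the other pathway lists. Other members are given by values or ranges, some of them chosen after their values were seen. The members and lists were chosen with earlier results of these data known. The alternatives were DESeq2 1.42.0, the exact test, a robust fit, other scalings and filters, protein-coding genes only, 1 transcript per gene, a replicate block, other thresholds, a prior count of 2 and each library left out. The tests were checked on simulated counts. Standard errors are not given by edgeR's test and were derived from its log2 fold change and F statistic. Intervals are 95%, from these standard errors and the median prior plus the residual degrees of freedom.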

Additional observations from a re-analysis of the deposited data

How the results depend on the processing

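The calls rest on 2 libraries per age and on the dispersion shared across genes. With 1 library left out, between 0 and 2 members were called higher and between 0 and 1 lower, and without elderly replicate 1 or 2 the count was 0 in both directions (14 and 17 members at an unadjusted p under 0.05). The count over all genes then lay between 0 and 866, that of the other pathway genes between 0 and 9, and the members' median log2 fold change between −0.35 and 0.018. In each fit with 1 library left out, 1 age was represented by 1 library, assumed to vary like the other age. The exact test at a dispersion of 0.2 called 0 members higher and 0 lower, 233 genes in all and 1 other pathway gene, and DESeq2 called 709 genes in all. The robust fit called 908 genes. Without a filter 1053 genes and 17 other pathway genes were called. With an absolute log2 fold change over 1 as well, 1 member was called lower.

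With the replicate number as a block, 4 members were called higher and 4 lower, with 1262 genes in all and 20 other pathway genes. These were the 4 members called without it together with Bmp2, Gdf10, Grem1 and Id1. The numbers are not known to pair the libraries: the differences between replicates 1 and 2 correlated between the ages with r = 0.05 across 7040 genes, which are not independent.

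Scaling to the summed stromal markers, chosen after seeing the data, left 0 members called lower (11 of either direction at an unadjusted p under 0.05) and 3 called higher, and moved the members' median to 0.24 and that of all genes to 0.43. Of the members not called, some turned direction. Under that scaling Ltbp2 was at 0.23, Tgfbr3 at 0.15, Fstl1 at 0.061, Smad4 at 0.26 and Smad7 at 0.33. Tgfb3 was at −0.0058 with filterByExpr and at −0.013 with 1 transcript per gene. With 1 library left out, Tgfb3 lay between −0.13 and 0.14, Tgfbr3 between −0.57 and 0.048, Smad4 between −0.32 and 0.021 and Ltbp2 between −1.23 and 0.25. The cause was not tested. The 4 called members kept their direction in each alternative run and stayed called under DESeq2, the robust fit, the filters and the scalings other than that to the stromal markers.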
